A study of Xenopus tropicalis with 11 samples.

Results

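The regions described here carried a Foxh1 peak at both blastula stages of Xenopus tropicalis, stages 8 and 9, and no peak of any of the 4 other lists of the series. Those lists were Tle at stage 8, Foxa at stage 10.25, and Foxh1 and Smad2/3 in the early gastrula, slightly later than Foxa. Peaks of all 6 lists that overlapped by at least 1 base were joined into 88697 regions. Of these, 40546 held a Foxh1 peak of some stage, and 5092 of them (12.6%) met the rule. A region with Foxh1 at stages 8 and 9 and not in the gastrula is called blastula-stable, and a region with no Tle, Foxa, Smad2/3 or gastrula Foxh1 peak is called partnerless. The name refers to these lists alone. None of them gives Tle at stage 9, or Foxa or Smad2/3 at stages 8 and 9. The partnerless regions were 5092 of the 16537 blastula-stable ones (30.8%, Wilson 95% interval 30.1 to 31.5%). The regions were thus chosen by the authors' peak calls in all 6 lists, and their number is a description with no test.

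Foxh1 is a forkhead transcription factor that the egg supplies to the embryo. It is best known as the DNA-binding partner of Smad2/3, which enter the nucleus when Nodal ligands activate their receptors, and the pair switches on genes of the mesoderm and endoderm. Tle proteins are Groucho-type co-repressors, which reach DNA by way of the transcription factors they bind. Foxa proteins belong to the same forkhead family as Foxh1, act in endoderm and organizer, and are known for binding closed chromatin. Stages 8 and 9 lie around the onset of transcription from the embryo's own genome.

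All samples were whole embryos of the Nigerian strain, untreated apart from fixation and grown at 25 °C, and all cells of the embryo contributed to each list. Foxh1 was precipitated with a custom antibody labelled xtFoxh1, and each blastula list stands for 2 pooled replicates. Tle and Foxa were each profiled in 1 library, that of Tle made with another kit, and the gastrula lists are a reanalysis of samples of an earlier series. Each factor and stage had 1 list, which leaves neither a replicate spread nor a test over samples. Intervals below cover the counting of regions only, and differences between classes of regions are described without a p-value. The depth of the libraries is unknown. A peak that is missing from a list is not shown to be absent from the chromatin, above all in the gastrula, where Foxh1 had 1290 and Smad2/3 480 listed peaks. The Foxh1 lists of stages 8 and 9 held 28611 and 29935, the Tle list 37919 and the Foxa list 40925.

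A further 3 classes of blastula-stable regions serve for comparison: 6963 with Tle and no Foxa, 1409 with Foxa and no Tle, and 3046 with both, all without gastrula Foxh1 or Smad2/3. Partnerless regions of a single blastula stage numbered 5008 at stage 8 only and 5776 at stage 9 only.

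The partnerless regions were bound by Foxh1 at middling strength at both stages. Strength is given by the authors' score, which is 10 times the −log10 p of the peak, and by its percentile within the list of the same stage. The stage 8 score ran from 320, the floor of the list, to 1805, with a median of 513 (interval 506 to 519) and quartiles of 405 and 692. The stage 9 score ran from 256, again the floor of its list, to 1895, with a median of 498 (488 to 506) and quartiles of 354 and 737. As percentiles the medians were 43.7% (42.8 to 44.7%) of the stage 8 list and 48.3% (46.8 to 49.2%) of the stage 9 list, so the typical region stood a little below the middle of each. The authors' fold enrichment over the local background had a median of 15.9 at stage 8 and 15.5 at stage 9, and reached 45.4 and 46.96.

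Foxh1 scores at these regions were higher than at partnerless regions found at 1 stage alone, which is a description that the rule itself bears on. It sorts regions by whether a peak passed the floor of each list, 320 at stage 8 and 256 at stage 9, so that a site near a floor can fall into a single-stage class. Regions of stage 8 only had a median percentile of 23.9% (23.2 to 24.6%), and regions of stage 9 only one of 26.1% (25.7 to 26.8%). In comparison with the other blastula-stable classes, the order depended on the stage and on the partner. At stage 8 the regions with Tle alone stood at 74.9% (74.0 to 75.6%) and those with Tle and Foxa at 70.7% (69.3 to 72.5%). Regions with Foxa alone had a stage 8 median of 41.9% (39.8 to 44.7%), an interval that overlaps that of the partnerless regions. At stage 9 the regions with Foxa alone stood at 75.5% (73.8 to 76.6%), those with both at 83.3% (82.5 to 84.0%) and those with Tle alone at 58.2% (57.3 to 59.3%), all above the partnerless regions. Partnerless regions and those with Foxa alone thus overlapped in their stage 8 intervals and stood well apart at stage 9.

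**Figure D1:**
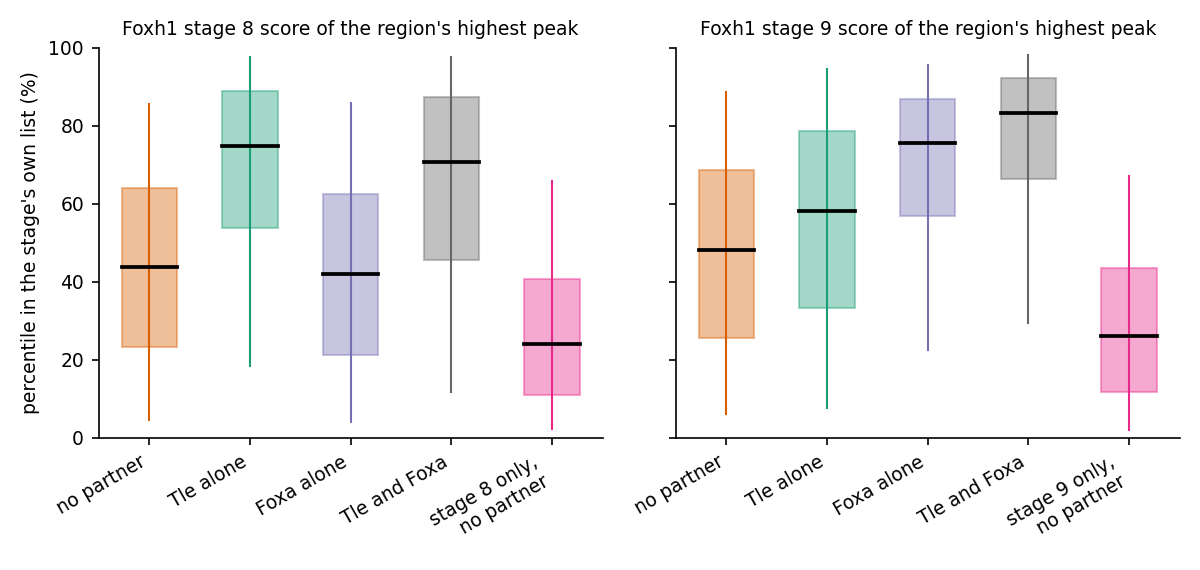
Percentile of the region's highest Foxh1 peak in the stage 8 list (left) and the stage 9 list (right), by class of region. Boxes span the quartiles, black bars mark the median and thin lines run from the 5th to the 95th percentile of regions; the partnerless medians are 43.7% and 48.3%.

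The share of partnerless regions fell with the Foxh1 score, here without regard to peak width, which is taken up below. Blastula-stable regions were ranked by their stage 8 score and divided into 10 classes of 1653 or 1654 regions. In the lowest class 53.1% (50.7 to 55.5%) were partnerless, in the fifth 35.4% (33.2 to 37.8%) and in the highest 3.14% (2.41 to 4.10%). Along the same ranking the share with a Tle peak went from 30.4% to 95.5%, whereas the share with a Foxa peak stayed between 25.2% and 28.7%. Ranked by stage 9 score, the partnerless share went from 46.5% (44.1 to 48.9%) to 7.86% (6.66 to 9.26%), the Tle share from 50.7% to 81.4% and the Foxa share from 6.65% to 59.3%. The Foxa share therefore changed with the stage 9 score and hardly with the stage 8 score.

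**Figure D2:**
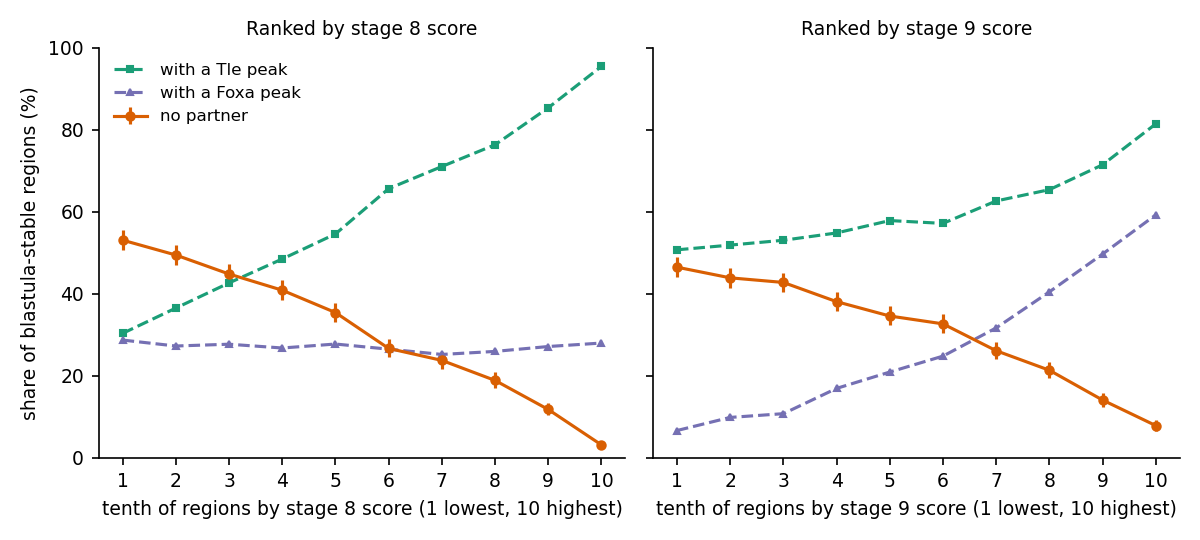
Share of blastula-stable regions that were partnerless, had a Tle peak or had a Foxa peak, in 10 classes of equal size by stage 8 score (left) and stage 9 score (right); bars on the partnerless points are Wilson 95% intervals. The partnerless share ends at 3.14% in the highest stage 8 class and at 7.86% in the highest stage 9 class, and the Foxa line is flat on the left and rises on the right.

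The share also fell along each score while the other was held within a class, except at the highest stage 8 scores. With blastula-stable regions divided into 3 classes of equal size by each score, 1516 of the 2635 regions in the lowest class at both stages were partnerless (57.5%, 55.6 to 59.4%). In the highest class at both stages 294 of 3073 were (9.57%, 8.58 to 10.7%). Among regions in the lowest stage 8 class but the highest stage 9 class the share was 26.2% (23.4 to 29.3%). In the opposite corner, highest at stage 8 and lowest at stage 9, it was 15.2% (13.0 to 17.6%). Within the highest stage 8 class the middle stage 9 class had 16.8% (15.0 to 18.8%), so there the share fell only in the highest stage 9 class.

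The width of the Foxh1 peak moved with the same split. Partnerless regions had median peak widths of 250 bases at stage 8 (248 to 252) and 245 bases at stage 9 (243 to 247). The corresponding medians were 375 and 311 bases with Tle alone, 279 and 351 with Foxa alone, and 438 and 470 with both. A stage 8 peak under 200 bases was in a partnerless region in 68.0% of 959 blastula-stable regions (65.0 to 70.9%), and a peak of 400 bases or more in 5.88% of 5337 (5.28 to 6.55%). This held among peaks of like score. Between the 25th and the 50th percentile of the stage 8 list the share was 67.5% (64.6 to 70.3%) for peaks of 200 to 250 bases and 10.9% (8.62 to 13.6%) for those of 400 bases or more. Above the 75th percentile it was 46.6% (39.9 to 53.4%) and 2.95% (2.41 to 3.61%). Below the 25th percentile it was 65.5% (62.3 to 68.6%) and 16.1% (12.6 to 20.4%). For peaks of 250 to 300 bases it was 49.3% (45.1 to 53.6%) below the 25th and 38.4% (35.0 to 41.9%) above the 75th percentile. The fall of the share with the stage 8 score thus also moved with peak width. A wider peak also has more bases in which to meet another peak, and the part of this in the counts was not tested.

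The strengths at stages 8 and 9 were only loosely tied to each other among partnerless regions. Across the 5092 regions the rank correlation of the scores was 0.32, beside 0.42 across all blastula-stable regions, 0.45 with Foxa alone, 0.48 with Tle alone and 0.54 with both. By fold enrichment the correlations lay closer together, at 0.22, 0.30, 0.29, 0.33 and 0.34 in the same order. These are descriptions over regions of the same 2 lists, whose scores also share the width and background of the site. Of the partnerless regions, 320 (6.28%, 5.65 to 6.98%) were in the upper 25% of both lists, against 19.5% of all blastula-stable regions. In the lower 25% of both lists were 454 (8.92%, 8.16 to 9.73%), against 4.39%. Strong disagreement between stages was rare as a share of all regions, which also depends on how many reach an upper 25%. In the upper 25% at stage 8 and the lower 25% at stage 9 were 68 regions (1.34%, against 2.59% of all blastula-stable regions), and 105 were the other way round (2.06%, against 2.27%). Among regions in the upper 25% at stage 8 these were 68 of 738 partnerless regions and 341 of 3464 with Tle alone. With Foxa alone they were 2 of 187 and with both 17 of 1350. Among regions in the upper 25% at stage 9 the other way round held for 105 of 893 partnerless regions. It held for 25 of 2063 with Tle alone, 121 of 713 with Foxa alone and 120 of 1987 with both.

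**Figure D3:**
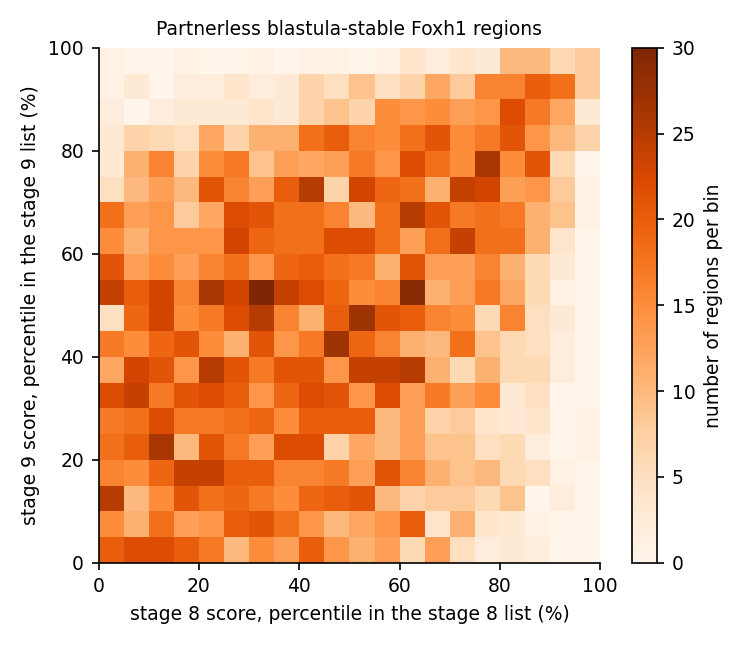
Stage 8 against stage 9 score of the 5092 partnerless regions, each as a percentile of its own list, counted in bins of 5 by 5 percentage points (colour, regions per bin). The regions fill most of the plane with a weak upward trend (rank correlation 0.32) and thin out above the 90th percentile of either list.

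The Foxh1 summits of stages 8 and 9 lay close together within the regions. The rule keeps only regions where a peak of each stage is joined by overlap, almost always 1 peak of each, so that both stages share a site to within about a peak width is fixed by the choice of regions. The distances within that width are given as a description. The summits of the highest stage 8 and stage 9 peaks of a partnerless region lay a median of 9 bases apart, with quartiles of 4 and 16 bases. The interval of this median was 9 to 9 bases. They were within 10 bases in 2895 regions (56.9%, 55.5 to 58.2%), against 50.6% of all blastula-stable regions, and within 50 bases in 98.9% (98.6 to 99.2%), against 94.7%. The summit fell on the same base in 198 regions, and 17 regions (0.334%) had summits over 100 bases apart, against 2.91% of all blastula-stable regions. The stage 9 summit had the higher coordinate in 2533 regions and the lower in 2361, with a median difference of 0 bases. The fragments had been sheared to 200 to 500 bases, so the summits repeated to well below the fragment length. Within the peak the stage 8 summit lay at the middle, at a median of 49.4% of the width with quartiles of 44.1 and 54.7%. A region held more than 1 Foxh1 peak of a stage in 4 of 5092 cases (0.0786%), against 2.08% of all blastula-stable regions. The joining of peaks bears on this contrast and on that of distant summits. A Tle or Foxa peak can join separate Foxh1 peaks into 1 region, and by the rule this cannot happen in a partnerless region.

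In the other classes the summits lay slightly further apart, at medians of 11 bases with Tle alone (10 to 11), 10 with Foxa alone (10 to 11) and 13 with both (12 to 14). This difference moved with peak width. Among regions with a stage 8 peak of 200 to 250 bases the medians were 9 bases (8 to 9) for partnerless regions, 8 (7 to 9) with Tle alone, 8.5 (7 to 10) with Foxa alone and 9 (8 to 11) with both. With peaks of 400 bases or more they were 9 (8 to 11), 13 (12 to 14), 13 (10 to 17) and 15 (14 to 16). With peaks under 200 bases they were 7 (7 to 8), 5 (3 to 6), 6 (5 to 10) and 4 (1 to 9). With peaks of 250 to 300 bases they were 9 (8 to 10), 10 (9 to 11), 11 (10 to 13) and 11 (10 to 12). With peaks of 300 to 400 bases they were 10 (9 to 11), 10 (10 to 11), 11 (9 to 13) and 12 (11 to 13). The tighter summits of the partnerless class were thus not seen among narrow peaks. Against Tle alone their interval stood clear and lower only at 400 bases or more, where 314 partnerless regions lay. Under 200 bases the summits lay closer with Tle alone than in partnerless regions.

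**Figure D4:**
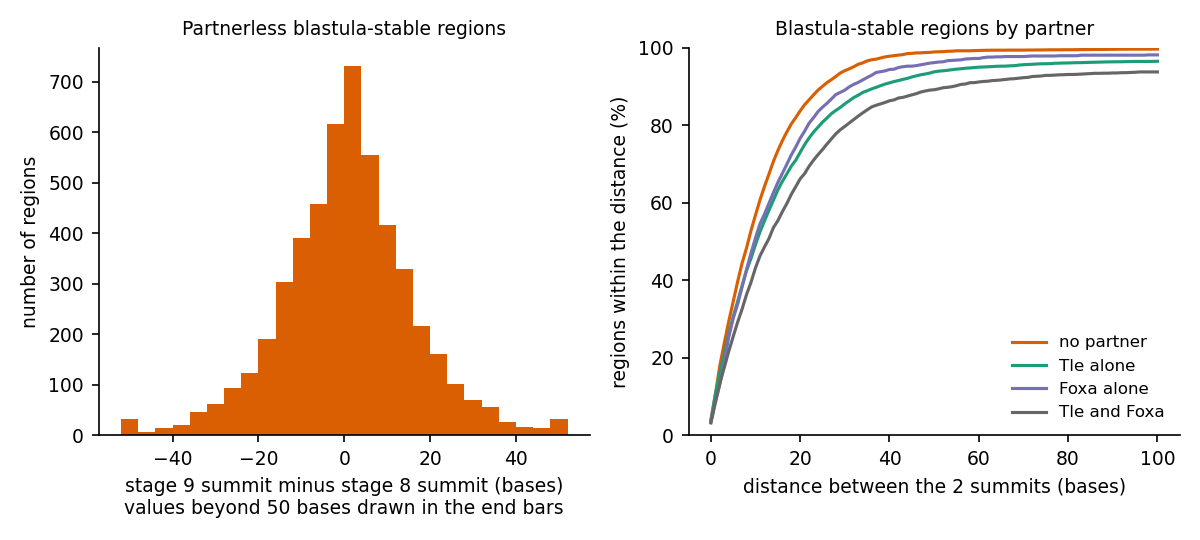
Left, position of the stage 9 summit relative to the stage 8 summit in the 5092 partnerless regions; values beyond 50 bases are drawn in the end bars. Right, cumulative share of blastula-stable regions whose 2 summits lie within a given distance. Within 10 bases are 56.9% of the partnerless regions, and from 2 bases on their line runs above those of the other 3 classes. Peak width, which differs between the classes, is not held equal here.

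The highest stage 8 scores among partnerless regions came close to the top of the list. Above the best of them stood 213 of the 28611 stage 8 peaks, and 2 of the regions were in the upper 1% of that list, among 201 blastula-stable regions there. The best, at 102472224 to 102472675 of scaffold 4, scored 1805 at stage 8 and 1529 at stage 9, with folds of 44.9 and 38.2. Its summits were 2 bases apart, the nearest Foxa peak was 28.1 kb away and the nearest Tle peak 79.6 kb. It was followed by scaffold 2 from 85785988 to 85786415, with scores of 1788 and 1707 and folds of 45.4 and 41.4, and a Foxa peak at 10.7 kb. Next was the region on scaffold 1 from 120889475 to 120889970, which had scores of 1747 and 1387 and folds of 44.3 and 25.4. All 3 were in the upper 10% of both lists.

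The next 3 by stage 8 score were of the same kind. The region on scaffold 5 from 30585331 to 30585796 had scores of 1737 and 1541, its summits on the same base, and a Foxa peak only 403 bases from its edge. The other two scored 1678 at stage 8. The region on scaffold 10 from 3380023 to 3380347 had a stage 9 score of 1428 and Foxa and Tle peaks at 4.99 and 5.36 kb. The region on scaffold 2 from 58246929 to 58247267 had a stage 9 score of 1451, a Foxa peak at 5.59 kb and a Tle peak at 30.4 kb. The stage 9 scores of all 6 lay between the percentiles of 93.0% and 98.7%.

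At stage 9 a larger number of partnerless regions reached the top. Above the best stood 48 of 29935 peaks, and 7 regions were in the upper 1% of the list, among 158 blastula-stable regions there. The best, at 14699325 to 14699702 of scaffold 6, scored 1895 at stage 9 and 1655 at stage 8, with folds of 46.96 and 42.4. Its summits were 3 bases apart, and its nearest partner peak was a Tle peak 47.7 kb away. The second, on scaffold 2 from 85648373 to 85648713, scored 1797 at stage 9 and 1380 at stage 8, with a Foxa peak at 16.7 kb and a gastrula Foxh1 peak at 19.9 kb. These were strong at both stages.

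Some of the best stage 9 regions stood lower at stage 8. The region on scaffold 7 from 79361827 to 79362330 scored 1785 at stage 9 and 1051 at stage 8, a stage 8 percentile of 85.1%, with both summits on the same base. The region on scaffold 1 from 17476891 to 17477276 scored 1779 and 815, a stage 8 percentile of 73.4%, with a Foxa peak at 3.99 kb. The 2 remaining regions lay on scaffold 7 from 86148201 to 86148540 (1777 and 1236, with a Foxa peak 469 bases away) and on scaffold 4 from 120793707 to 120794096 (1766 and 1046). The 6 highest at each stage were 12 separate regions, which are too few of 5092 for the lack of overlap to be read as a result. In 9 of these 12 regions the summits were within 10 bases, against 56.9% of all partnerless regions, and the largest distance was 24 bases. A partner peak lay within 10 kb of 6 of the 12, against 66.4% of all partnerless regions. The nearest partner peak of the 12 was between 0.403 and 47.7 kb away.

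The nearest partner peak lay some kilobases from the typical partnerless region. The nearest Tle peak lay a median of 11.9 kb from the region's edge (quartiles 3.42 and 28.5 kb) and the nearest Foxa peak 11.5 kb (3.15 and 31.3 kb). Gastrula Foxh1 was at a median of 432 kb and gastrula Smad2/3 at 1370 kb, in lists that are far shorter. The nearest peak of any of these lists was Tle in 2550 regions, Foxa in 2484, gastrula Foxh1 in 19 and Smad2/3 in 3, at a median of 5.04 kb, and 36 regions had none on their scaffold. Within 200 bases of a partner peak were 186 regions (3.65%, 3.17 to 4.20%), within 1000 bases 945 (18.6%, 17.5 to 19.6%) and within 10 kb 3379 (66.4%, 65.0 to 67.6%). The Tle and Foxa lists are long, with 31.3 and 34.5 peaks per Mb at 50 to 100 kb from these regions, and the distances are not shown to be shorter than those from other positions.

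Foxh1 strength differed little along that distance. Among the 186 regions within 200 bases of a partner peak the median percentiles were 44.7% at stage 8 (38.1 to 49.9%) and 49.6% at stage 9 (42.0 to 57.0%). Among the 778 regions with none within 20 kb they were 42.8% (39.4 to 46.1%) and 46.6% (44.7 to 48.7%), with overlapping intervals. The summits were 8 bases apart in both sets. Partner peaks within 1000 bases of a partnerless region were not weak for their lists. The 601 such Tle peaks had a median percentile of 59.7% (56.2 to 63.1%) by the authors' Tle score and the 618 such Foxa peaks one of 51.2% (48.8 to 55.2%).

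At the edge of the rule, 11 regions had a partner peak 1 to 10 bases away, and 8 blastula-stable regions were left out by partner overlaps of 1 to 10 bases. Median scores were 531 at stage 8 and 572 at stage 9 in the first and 551 and 623.5 in the second. The closest was the region on scaffold 2 from 63623903 to 63624125, with a Tle peak 1 base away and scores of 335 and 788. Next came scaffold 1 from 127255724 to 127256021 (531 and 1051) and scaffold 6 from 122187277 to 122187509 (358 and 572), each with a Foxa peak 2 bases away. At the other extreme, the most remote region of the 10 longest scaffolds lay on scaffold 6 from 4839625 to 4839968, 156 kb from the nearest Tle peak and 157 kb from the nearest Foxa peak. Its scores were 419 and 737. The other 5 most remote regions were 108 to 142 kb from any partner. The highest-scoring of these was on scaffold 7 from 90384859 to 90385159, with 1037 and 846.

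The surroundings of partnerless regions were poorer in Tle peaks than those of other blastula-stable regions. The classes were themselves set by peaks of the Tle and Foxa lists, so any clustering of peaks within a list bears on this order. The classes were not matched for Foxh1 score or peak width, and the values are a description. Peaks with a centre 1 to 10 kb from the region's centre were counted on both sides, in regions at least 100 kb from the first and last peak of the scaffold (4896 partnerless regions). Tle peaks stood at 41.0 per Mb there, against 51.1 with Foxa alone, 71.8 with Tle alone and 86.3 with both. Around partnerless regions of stage 8 only they stood at 44.3 per Mb, and around those of stage 9 only at 38.2. At least 1 Tle peak was present around 42.1% of partnerless regions (40.7 to 43.5%), 48.1% with Foxa alone (45.5 to 50.8%), 61.2% with Tle alone (60.0 to 62.4%) and 65.7% with both (64.0 to 67.4%). Foxa peaks stood at 48.2 per Mb around partnerless regions and at 46.9 around those with Tle alone. The shares with at least 1 Foxa peak were 42.8% (41.4 to 44.2%) and 42.3% (41.2 to 43.5%). Around regions with Foxa alone the Foxa density was 103.8 per Mb and around those with both 114 per Mb.

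All these densities fell towards a common level with distance. Between 50 and 100 kb the Tle density was 31.3 per Mb around partnerless regions and 32.4 to 36.1 around the other blastula-stable classes. The Foxa density was 34.5 there, with 33.7 to 42.3 in the others. Foxh1 peaks were also denser near partnerless regions than far from them. For stage 8 they stood at 36.4 per Mb at 1 to 10 kb and 24.6 at 50 to 100 kb, and for stage 9 at 41.6 and 25.5. The other blastula-stable classes had the same fall, from higher values near the region. At 1 to 10 kb stage 8 peaks stood at 57.7 per Mb with Tle alone, 49.3 with Foxa alone and 73.1 with both. Stage 9 peaks stood at 50.2, 69.1 and 88.4 in the same order. Gastrula Foxh1 peaks stood at 1.74 per Mb at 1 to 10 kb, close to the 2.00 of regions with Tle alone and below the 5.36 of regions with Foxa alone and the 6.18 of those with both. Smad2/3 peaks stood at 0.567 per Mb around partnerless regions and 0.563 with Tle alone, and at 2.32 with Foxa alone and 2.26 with both. These values rest on few regions. Any Smad2/3 peak lay there for 43 of 4896, 59 of 6715, 42 of 1367 and 105 of 2950, in the same order.

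Compared with partnerless regions of 1 stage, the blastula-stable ones lay between the other two in their Foxa surroundings. At least 1 Foxa peak lay 1 to 10 kb away in 35.6% of regions of stage 8 only (34.3 to 37.0%), in 42.8% of the blastula-stable ones and in 48.8% of those of stage 9 only (47.5 to 50.1%). For Tle the order was reversed, with 44.9% (43.5 to 46.3%), 42.1% and 40.9% (39.6 to 42.2%), and the intervals of the last 2 overlap while the first stands just clear of the blastula-stable one.

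**Figure D5:**
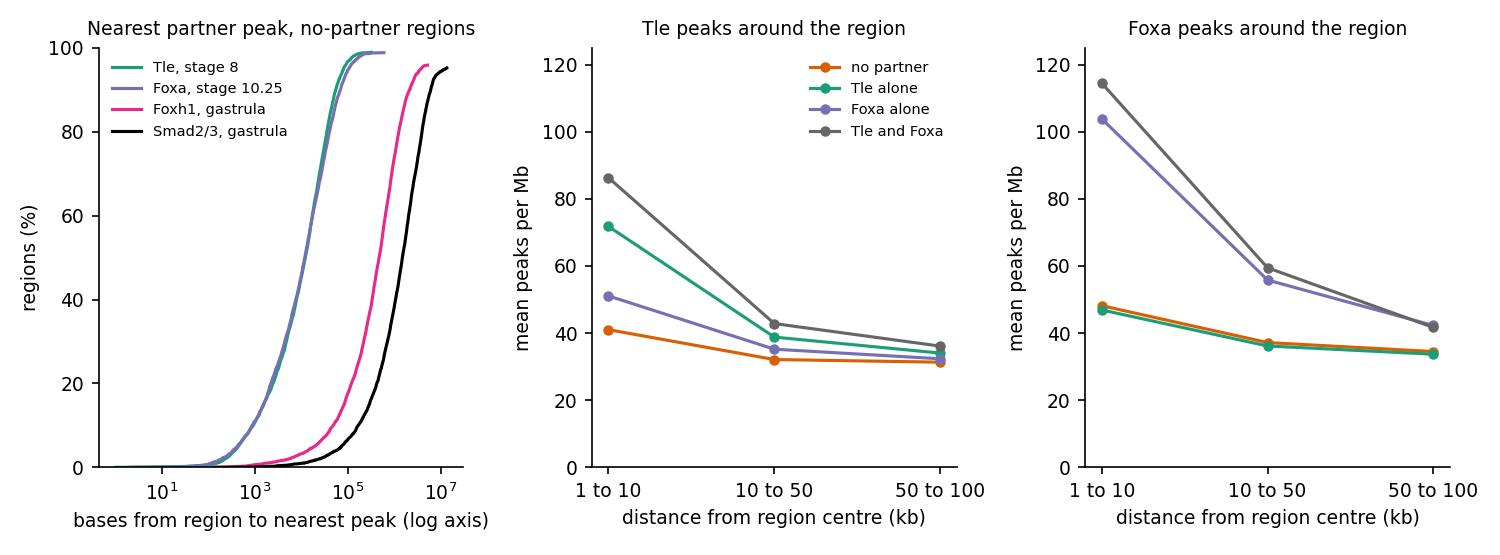
Left, cumulative share of the 5092 partnerless regions by distance to the nearest peak of each partner list, on a log axis. Middle and right, mean density of Tle and Foxa peaks (peaks per Mb) 1 to 10, 10 to 50 and 50 to 100 kb from the centre of blastula-stable regions by class; around partnerless regions Tle starts lowest, at 41.0 per Mb, and Foxa at 48.2 per Mb lies beside the 46.9 of regions with Tle alone.

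Partnerless regions were spread widely, and their spacing was not set against that of randomly placed regions. They lay on 197 of the 1234 scaffolds that hold any peak, with 2.86 to 4.27 regions per Mb on the 10 longest scaffolds. Of the blastula-stable regions of a scaffold, between 28.6% (scaffold 8, 26.3 to 31.0%) and 36.1% (scaffold 10, 31.2 to 41.3%) were partnerless. Scaffold 10 was the shortest of the 10, with 122 partnerless regions, and its interval overlaps that of the series, as does that of scaffold 8. The nearest other blastula-stable region was a median of 22.4 kb away (21.1 to 23.7), against 14.3 kb for regions with Tle alone, 16.5 kb with Foxa alone and 7.06 kb with both.

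Neighbours were compared to see whether partnerless regions lie side by side. The nearest blastula-stable neighbour was itself partnerless for 33.9% of partnerless regions (32.6 to 35.3%), for 31.5% of those with Foxa alone (29.2 to 34.0%), for 26.1% with Tle alone (25.1 to 27.2%) and for 23.9% with both (22.4 to 25.4%). Over all blastula-stable regions the partnerless share was 30.8%. Regions that are each other's nearest neighbour count from both sides, which the intervals do not allow for. The spread between classes was wider at short range. With a neighbour within 1000 bases the shares were 28.2% (23.9 to 32.9%), 18.4% (12.9 to 25.6%), 14.9% (12.9 to 17.3%) and 13.6% (11.1 to 16.5%) in the same order. With the neighbour over 50 kb away they were 35.9% (33.5 to 38.5%), 39.2% (34.2 to 44.5%), 33.4% (31.1 to 35.7%) and 33.6% (29.4 to 38.0%), and these 4 intervals overlap.

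The 200 kb window with the most partnerless regions lay on scaffold 7 from 22763730 to 22963729 and held 8 of them, out of 10 blastula-stable regions. It had 10 stage 8 and 15 stage 9 Foxh1 peaks, 4 Tle and 9 Foxa peaks and none of gastrula Foxh1 or Smad2/3. Stage 8 scores of the 8 ran from 339 to 661 and stage 9 scores from 358 to 1103, with summits at most 31 bases apart. The next, on scaffold 2 from 46853710 to 47053709, held 7 of 12 blastula-stable regions, with 9 Tle and 4 Foxa peaks and again no gastrula peak. Its 7 had stage 8 scores of 335 to 829 and stage 9 scores of 272 to 966. A further 10 separate windows held 6. The tightest of these, on scaffold 65 from 318769 to 518768, had its 6 within 98.9 kb beside 19 Foxa, 2 gastrula Foxh1 and 2 Smad2/3 peaks. Scores within each dense window were mixed. The highest percentiles on scaffold 7 were 61.2% at stage 8 and 84.9% at stage 9. On scaffold 2 they were 74.1% and 79.9%, and on scaffold 65 they were 81.4% and 88.9%. The lowest were 6.03% and 27.2% on scaffold 7, 4.63% and 4.96% on scaffold 2, and 1.25% and 0.925% on scaffold 65.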

How the data were processed

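ChIP-seq (chromatin immunoprecipitation and sequencing) peak lists of 4 of the 11 whole-embryo samples and 2 lists of the whole series were used. The 4 RNA polymerase II and 3 input samples were not analysed here. Per the labels' protocols, embryos were fixed in 1% formaldehyde for 45 min and chromatin was sheared to 200 to 500 bases. The submitters' processing notes name MACS2 2.0.10, HOMER 4.7, Bowtie 1.0.0 and SAMtools without saying what each did. Build and thresholds of the peak calls are not given in the sources, so no gene, sequence or motif is assigned to a region. The deposited Foxh1 and Smad2/3 lists give the authors' fold enrichment ratio, −log10 p, score and summit per peak. The deposited Tle and Foxa lists give only a score.

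Peaks sharing at least 1 base were joined, and the highest-scoring peak of each stage stood for a region. Regions in the text are the 6 highest at each stage, the 6 furthest from and 3 closest to a partner, and the densest 200 kb windows, ties going to the shortest span. Coordinates count from 1. Shares have Wilson 95% intervals and medians binomial order-statistic 95% intervals. Scores were compared as percentiles within 1 list, and the steps were tested on simulated data with planted regions. The regions and measures were chosen with earlier results of these data known. The software was Python 3.11.15 with scipy 1.17.1, pandas 2.3.3, numpy 2.4.6 and, for figures, matplotlib 3.10.9. Alternatives changed the joining of peaks, the definition of stable and partnerless, the length of the lists and the scaffolds.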

Additional observations from a re-analysis of the deposited data

How the results depend on the processing

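The count of 5092 partnerless regions stayed within 1.5 times under 7 of 9 alternatives. It was 2574 with no partner within 5000 bases and 1285 with the upper 50% of each blastula Foxh1 list. Their share of blastula-stable regions, 30.8%, depended most on the definitions. It was 25.1% and 15.6% with no partner within 1000 and 5000 bases, 28.4% with peaks up to 500 bases apart joined and 31.6% with summits required within 100 bases. With the upper 50% of the Tle and Foxa lists it was 43.7%, and with the upper 50% of the Foxh1 lists 17.4%. The last 2 settings also moved the median stage 8 percentile from 43.7% to 46.7% and 71.9%, the second by construction, since it keeps only high scores. The median summit distance was 9 bases under 8 alternatives and 7 with the upper 50% of the Foxh1 lists. Of the 21 regions of highest score, furthest from a partner or closest to one, 13 to 21 still met the rule. The lowest count came with the upper 50% of the Foxh1 lists, which drops regions of low score. No paired analysis was possible because each factor and stage has 1 list and the result comes from no test. Leaving out a replicate was not possible for the same reason. The unknown depth limits what a missing peak can show.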
